A study of Homo sapiens with 8 samples.

Results

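The 10 genes described here encode Krüppel-like factors (KLF2, KLF3, KLF4, KLF5, KLF6, KLF7, KLF9, KLF10, KLF11 and KLF13), taken by name from the deposited tables, with the longest annotated transcript standing for each gene. They are 10 of the 19351 genes in the tables. KLF proteins bind GC-rich and CACCC-containing DNA through C-terminal zinc fingers. One branch of the family, with KLF2, KLF4, KLF5, KLF6 and KLF7, holds mostly activators. KLF3 belongs to the branch that recruits the CtBP corepressor, and KLF9, KLF10, KLF11 and KLF13 to the branch that recruits SIN3A. Several of the genes are known as early response genes, whose transcription rises within minutes of serum, growth factors, TGF-beta or stress, and KLF6 and KLF10 are among the family members known in fibroblasts.

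The assay was GRO-seq, which reads nascent RNA. In it, polymerases that are already engaged on a gene extend their RNA in isolated nuclei, here for 5 min with Br-UTP, and the labelled RNA is captured and sequenced. The cells, human lung fibroblasts, are called MRC5 in the labels and MRC5_VA, an SV40-immortalized fetal line, in the study's methods. They were either wild type (WT) or with ZFAS1, a long noncoding RNA, knocked down (KD). For all 8 libraries the cells were held in 100 µM DRB, an inhibitor of the kinase that releases RNA polymerase II into genes, for 3.5 h. UV-C at 10 J/m2 or no UV followed, and nuclei were collected 10 or 40 min after DRB had been removed. This gives 8 groups of 1 library: WT or KD, without or with UV, at 10 or 40 min. A difference is therefore tested over matched pairs, with the spread taken from what the fitted terms leave over. A single pair has no replicate check, and nothing shows whether libraries came from separate cultures.

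The 8 libraries held 10.2 to 21.1 M reads over genes. Fibroblast markers lay at a median of 7.51 to 14.0 times the background in each library, where the background is the median density of 20 epithelial and immune marker genes, and 12 of 15 exceeded 3 times. Epithelial and immune markers set that background, and 3 of 9 endothelial markers exceeded 3 times. The background density was 0.227 reads per kb per M reads at 10 min and 0.0846 at 40 min in WT without UV, and 0.175 to 0.254 in the other 6 libraries. ZFAS1 was at 507 to 1789 CPM in WT and at 694 to 1596 CPM in KD. In matched pairs KD was below WT only without UV at 40 min, at 1596 against 1789 CPM. Since the study's methods describe knockdown by shRNA, which acts on finished RNA, a nascent level does not check the label. In 2 of the 4 kinds of library (WT without UV and KD with UV) the tables list transcripts in one order, and in the other 2 (WT with UV and KD without UV) in another. This split is the same as that of the knockdown by UV term, so the term and the order of the tables cannot be told apart.

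Promoter windows of 300 bases around the start, from RefSeq (GRCh38.p14), were used for 8 of the 10 genes, 13 windows in all. KLF3 and KLF10 were not included, so the counts below do not cover them. Their absence does not mean that RefSeq lists no start for them. The windows below belong to KLF6, the densest gene, and to KLF7 and KLF5, whose stretches differed in their ratios of 40 over 10 min. They are KLF6 on chr10:3785160-3785459 (minus strand), KLF7 on chr2:207165899-207166198 (minus strand), and the upstream and main starts of KLF5 on chr13:73054726-73055025 and chr13:73058755-73059054 (plus strand). Capitals mark matches on either strand to GGGCGG, the GC box, or CCACCC, the CACCC box, the sequences that SP and KLF proteins bind.
KLF6: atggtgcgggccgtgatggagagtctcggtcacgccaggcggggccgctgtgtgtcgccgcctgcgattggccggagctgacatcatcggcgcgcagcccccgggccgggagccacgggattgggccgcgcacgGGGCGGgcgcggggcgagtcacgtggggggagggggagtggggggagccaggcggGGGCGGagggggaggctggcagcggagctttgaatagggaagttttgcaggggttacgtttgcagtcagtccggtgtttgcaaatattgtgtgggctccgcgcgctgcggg
KLF7: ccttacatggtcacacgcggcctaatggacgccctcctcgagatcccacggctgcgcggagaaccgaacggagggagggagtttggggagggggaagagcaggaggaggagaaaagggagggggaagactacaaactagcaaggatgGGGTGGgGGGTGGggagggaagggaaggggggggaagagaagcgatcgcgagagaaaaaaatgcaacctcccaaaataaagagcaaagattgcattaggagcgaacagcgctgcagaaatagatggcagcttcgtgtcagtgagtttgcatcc
KLF5 upstream start: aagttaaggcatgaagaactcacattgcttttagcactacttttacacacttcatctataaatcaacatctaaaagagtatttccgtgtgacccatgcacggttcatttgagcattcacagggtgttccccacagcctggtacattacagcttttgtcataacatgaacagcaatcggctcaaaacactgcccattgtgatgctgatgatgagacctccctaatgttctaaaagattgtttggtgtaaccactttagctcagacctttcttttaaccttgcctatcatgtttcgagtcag
KLF5 main start: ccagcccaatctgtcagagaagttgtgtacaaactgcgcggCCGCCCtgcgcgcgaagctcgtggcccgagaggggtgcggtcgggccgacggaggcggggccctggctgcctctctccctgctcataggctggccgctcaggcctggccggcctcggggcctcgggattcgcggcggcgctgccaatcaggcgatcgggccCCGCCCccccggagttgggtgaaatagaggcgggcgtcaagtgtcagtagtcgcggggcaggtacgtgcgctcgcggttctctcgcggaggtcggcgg
The GC box was found in 8 of the 13 windows, from 7 genes, against 45.0% of all 35116 windows in the table. The KLF6 window holds 2 GC boxes, that of the main KLF5 start 2, and the KLF7 window shown no GC box but 2 CACCC boxes. Another KLF7 window, 207166807 to 207167106, holds 4 GC boxes. The CACCC box was in 2 of the 13 windows and in 34.3% of all. The upstream KLF5 start had neither box and the one TATAAA match among the 13 windows, against 11.5% of all, and its GC content was 40.7%, where the main KLF5 start had 71.3% and the median window 58.7%. A MEF2 site, bound by the factors through which ERK5 is known to act on KLF2, occurred in the KLF2 window alone among the 13 and in 2.99% of all. The CArG box of serum response factor occurred in 1 of the 4 KLF7 windows, not the one shown, and in 1.29% of all. The AP-1 sequence TGACTCA occurred in none of the 13 windows and in 4.95% of all. The cAMP response element TGACGTCA was in 1 of the 2 KLF11 windows and in 1.85% of all, and its core TGACG, which also lies within the full element, was in 4 of the 13 and in 24.6%. The ETS core GGAAG was in 9 of the 13 and in 71.9%. These matches describe letters in the windows and say nothing of binding.

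Among the 10 genes, KLF6, KLF10 and KLF7 had the densest nascent transcription. Read density, in reads per kb per M reads, had a median over the 8 libraries of 22.5 for KLF6, 9.91 for KLF10 and 2.46 for KLF7. Relative to the background of each library the medians were 102, 49.5 and 9.74 times. KLF6 is an activator also known as a tumour suppressor, and KLF10 was first described as a TGF-beta-inducible early gene. KLF6 was denser than KLF10 and KLF10 denser than KLF7 in each of the 8 libraries. KLF5 came next with a median density of 0.825, or 3.50 times the background. The other 6 genes had median densities between 0.230 for KLF11 and 0.640 for KLF2, from 1.06 to 2.74 times the background, and genes next to each other in this order (KLF5, KLF2, KLF13, KLF4, KLF3, KLF9, KLF11) overlapped in their ranges over the libraries. KLF11 lay between 0.659 and 2.99 times the background.

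**Figure D1:**
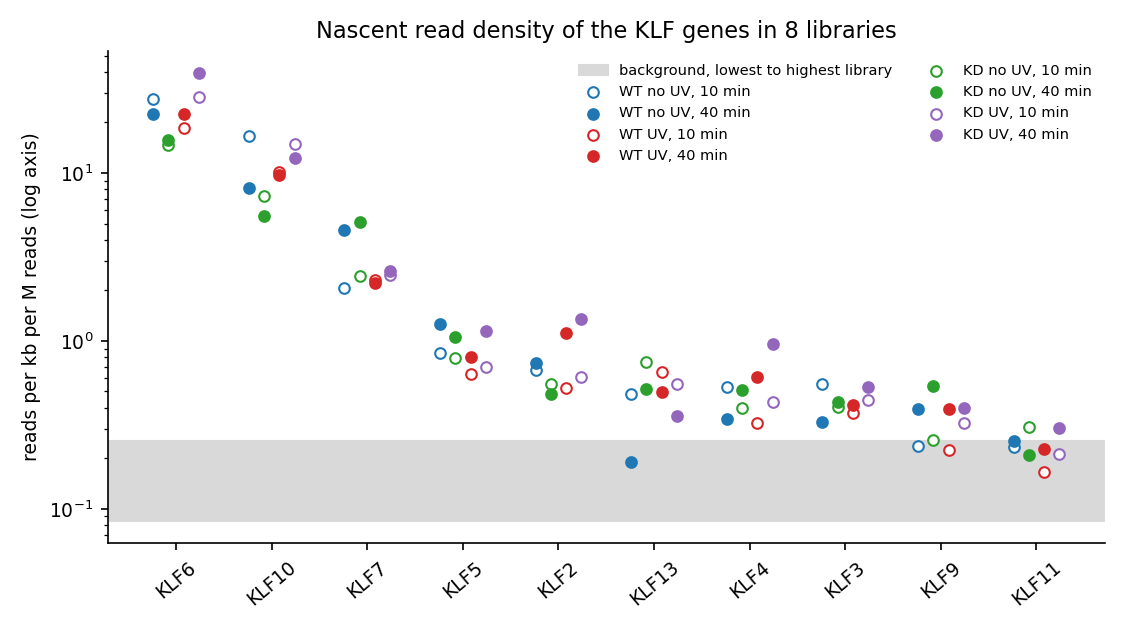
Read density (reads per kb per M reads, log axis) of the 10 KLF genes, ordered by their median, with 1 point for each of the 8 libraries, open at 10 min and filled at 40 min, and colours for cell and UV. The grey band runs from the lowest to the highest background of the 8 libraries, 0.0846 to 0.254. KLF6 and KLF10 lie far above the band, and the points of KLF11 lie in or near it.

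The activator KLF6 (chromosome 10, 3775996 to 3785209, minus strand, hg38) was at 253 and 207 CPM in WT without UV at 10 and 40 min, 172 and 208 in WT with UV, 135 and 144 in KD without UV, and 261 and 363 in KD with UV. Its highest library was KD with UV at 40 min, and its lowest was KD without UV at 10 min. KD over WT was below 1 without UV, at 0.533 (0.501 to 0.567, exact 95% interval for counting error only) at 10 min and 0.699 (0.660 to 0.740) at 40 min, and above 1 with UV, at 1.52 (1.43 to 1.61) and 1.74 (1.66 to 1.83). KLF10, a SIN3A-recruiting repressor (chromosome 8, 102648784 to 102655725, minus strand), had KD over WT ratios in the same directions. Unlike KLF6, KLF10 was highest in WT without UV at 10 min and lowest in KD without UV at 40 min. It was at 116 and 56.8 CPM in WT without UV, 70.4 and 67.1 in WT with UV, 50.4 and 38.6 in KD without UV, and 103 and 85.8 in KD with UV. Its KD over WT ratios were 0.436 (0.395 to 0.481) and 0.680 (0.608 to 0.759) without UV, and 1.46 (1.33 to 1.60) and 1.28 (1.17 to 1.40) with UV. Over the 8 libraries KLF6 and KLF10 had the highest correlation of any pair of members, with a Pearson r of log2 CPM of 0.78. The pair of KLF2 and KLF4 came next, at 0.77. Both values are descriptions over n = 8 libraries that share groups.

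KLF13, also of the SIN3A branch, had KD over WT ratios in the opposite directions. Its values were 24.6 and 9.71 CPM in WT without UV, 33.2 and 25.3 in WT with UV, 38.4 and 26.5 in KD without UV, and 28.1 and 18.3 in KD with UV. KD over WT was above 1 without UV, at 1.56 (1.33 to 1.82) and 2.73 (2.28 to 3.28), and below 1 with UV, at 0.845 (0.727 to 0.983) and 0.723 (0.612 to 0.854). The counted transcript (chromosome 15, 31326835 to 31377899, plus strand) lay at only 2.01 to 2.998 times the background, and its level followed the background over the 8 libraries (r = 0.94, n = 8), a relation whose part in the ratios was not tested. The same correlation was -0.84 for KLF5 and -0.70 for KLF7, highest in size after KLF13, and between -0.44 and 0.41 for the other 7 genes.

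The knockdown by UV term compares the KD over WT ratio of the irradiated libraries with that of the others, and is positive where UV goes with a higher ratio. Among all 17840 genes tested, 1603 were called at an adjusted p under 0.05, 8.99% of them, with 5.04% positive and 3.95% negative. That count rested on single libraries: leaving out 1 KD library gave 9 genes (KD no UV 10 min), 15 (KD no UV 40 min), 31 (KD UV 10 min) or 28 (KD UV 40 min), and leaving out 1 WT library gave 7820 or 2286 (unirradiated, 10 and 40 min) and 5562 or 1551 (irradiated, 10 and 40 min). None of the 10 KLF genes was called by edgeR's quasi-likelihood test. An unadjusted p under 0.05 was found for 3 of them, beside 6907 of all 17840 genes. KLF6 differed by 1.44 ± 0.47 (log2, SE; adjusted p = 0.0577 by edgeR), KLF10 by 1.35 ± 0.47 (adjusted p = 0.0653 by edgeR) and KLF13 by -1.38 ± 0.46 (adjusted p = 0.061 by edgeR). DESeq2 called these 3 genes, where it called 28.1% of all genes, and limma-voom called none of the 10, where it called 12.9%. The other 7 genes lay between -0.05 for KLF7 and 0.66 for KLF2, with standard errors of 0.43 to 0.71. The median over the 10 genes was 0.44, against 0.11 over all genes. Marker genes were called for this term too: of 15 fibroblast markers COL1A1 (2.09 ± 0.60) and VIM (2.56 ± 0.60) were positive and THY1 (-4.07 ± 0.79) negative. The endothelial marker TIE1 and the epithelial marker ESRP1 were negative. Of the immune markers 2 were positive, among them CD68, and 2 were negative, CSF1R and IKZF1. The part of all these markers in the KLF values was not tested.

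**Figure D2:**
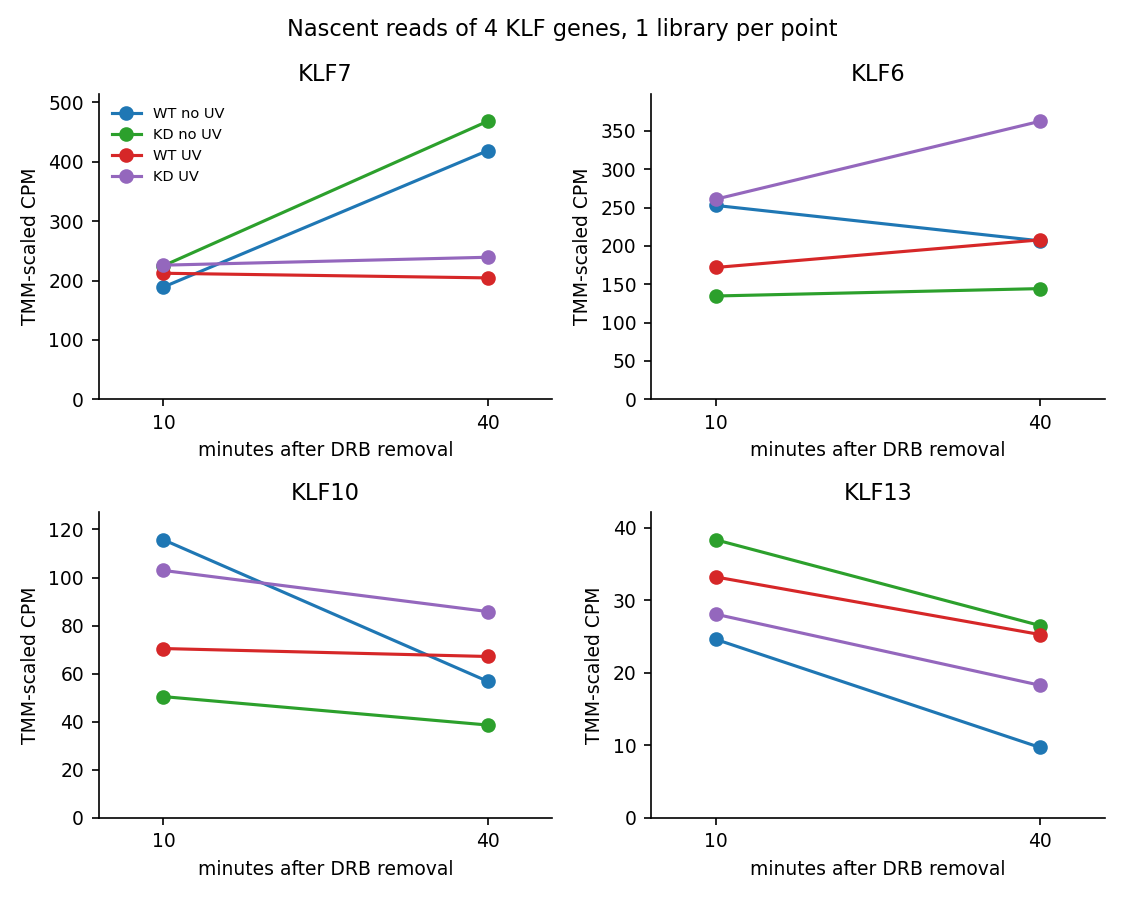
TMM-scaled CPM (y axis, from 0) of KLF7, KLF6, KLF10 and KLF13 at 10 and 40 min after DRB removal (x axis), 1 library per point and 1 line for each pair of cell and UV. In KLF7 the lines without UV run from 189 to 419 and from 225 to 468 and those with UV from 212 to 204 and from 226 to 239, while KD with UV is highest in KLF6 and WT without UV is lowest in KLF13.

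KLF7, the closest relative of KLF6 and known from neuronal and adipose tissue, spans 91.8 kb (chromosome 2, 207074137 to 207165948, minus strand), the longest of the 10 genes. It was at 189 and 419 CPM at 10 and 40 min in WT without UV and at 225 and 468 in KD without UV. With UV it was at 212 and 204 CPM in WT and at 226 and 239 in KD. The 2 unirradiated libraries at 40 min were the highest of the 8, and the other 6 lay between 189 and 239. The ratio of 40 over 10 min was 2.21 (2.11 to 2.33) and 2.08 (1.99 to 2.18) without UV and 0.963 (0.911 to 1.02) and 1.06 (1.01 to 1.12) with UV. UV over no UV was 0.488 (0.468 to 0.510) in WT and 0.511 (0.489 to 0.534) in KD at 40 min, against 1.12 and 1.00 at 10 min.

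The UV by time term for KLF7 was -1.09 ± 0.54 (log2, SE), with an adjusted p of 0.956 by edgeR. Over 16 alternative settings the estimate ran from -1.76 to -0.93. With the knockdown by UV term as a covariate, chosen after seeing the data, it was -1.09 ± 0.37 (adjusted p = 0.193 by edgeR). In that fit 3371 of all genes had an unadjusted p under 0.05. In the main fit none of the 10 genes was called for the UV by time term and none had an unadjusted p under 0.05. Of all genes tested 0% were called, with 486 at an unadjusted p under 0.05. DESeq2 and limma-voom called none of the 10 either. Estimates for the other 9 ranged from -0.36 for KLF9 to 1.20 for KLF4, and their median with KLF7 was 0.55, beside 0.30 over all genes.

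Within KLF7 the ratios above 1 lay in the body of the gene. All 4 listed transcripts share a core of 84.6 kb (207081016 to 207165571). Without UV its 40 over 10 min ratio was 3.10 (2.92 to 3.29) for WT and 2.99 (2.83 to 3.16) for KD, and with UV it was 1.02 (0.956 to 1.09) and 1.12 (1.06 to 1.19). The 7.26 kb of the transcript outside the core, 6.88 kb at its end and 0.377 kb at its start, had ratios of 0.448 (0.400 to 0.501) and 0.526 (0.472 to 0.586) without UV, and of 0.816 (0.730 to 0.911) and 0.902 (0.815 to 0.998) with UV. The core held 63 to 93.2% of the reads of the gene. A pair of stretches at the ends of another transcript, 1.27 kb near the gene's end and 0.399 kb before its start, was denser still, at 6.83 to 43.2 reads per kb per M reads, and had ratios of 0.282 to 0.710. The tables count these 2 stretches together, so which of them holds the reads cannot be told.

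KLF5, an activator known in proliferating epithelium and smooth muscle, has 2 listed transcripts with starts 4.03 kb apart (chromosome 13, 73054976 to 73077541, plus strand). The whole gene was at 19.2 and 28.6 CPM in WT without UV, 14.4 and 18.1 in WT with UV, 17.8 and 23.8 in KD without UV, and 15.8 and 25.9 in KD with UV. Its main part (18.5 kb from the downstream start) had 40 over 10 min ratios of 2.44 (1.99 to 3.03) in WT without UV, 3.17 (2.40 to 4.24) in KD without UV, 2.04 (1.51 to 2.79) in WT with UV and 2.10 (1.68 to 2.65) in KD with UV, above 1 in all 4 pairs. The upstream part had ratios of 0.291 (0.202 to 0.416), 0.515 (0.384 to 0.685), 0.773 (0.575 to 1.04) and 0.972 (0.705 to 1.34) in the same order. It held 69.1% of the gene's reads in KD without UV at 10 min and 8.6% in WT without UV at 40 min. Counted over the main part alone, KLF5 changed by 1.22 ± 0.37 (log2, SE; adjusted p = 0.0738 by edgeR), against 0.52 ± 0.30 over the whole gene.

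KLF6 also differed along its length. Its first 4.87 kb had 40 over 10 min ratios of 1.04 and 1.12 without UV and 1.80 (1.60 to 2.03) and 1.64 (1.49 to 1.80) with UV, for WT and KD. Its last part, 4.35 kb that includes the first 16 bases, had ratios of 0.748 (0.706 to 0.792) and 1.06 without UV and 1.05 and 1.32 (1.25 to 1.39) with UV. The last part held 68.4 to 78.8% of the gene's reads.

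**Figure D3:**
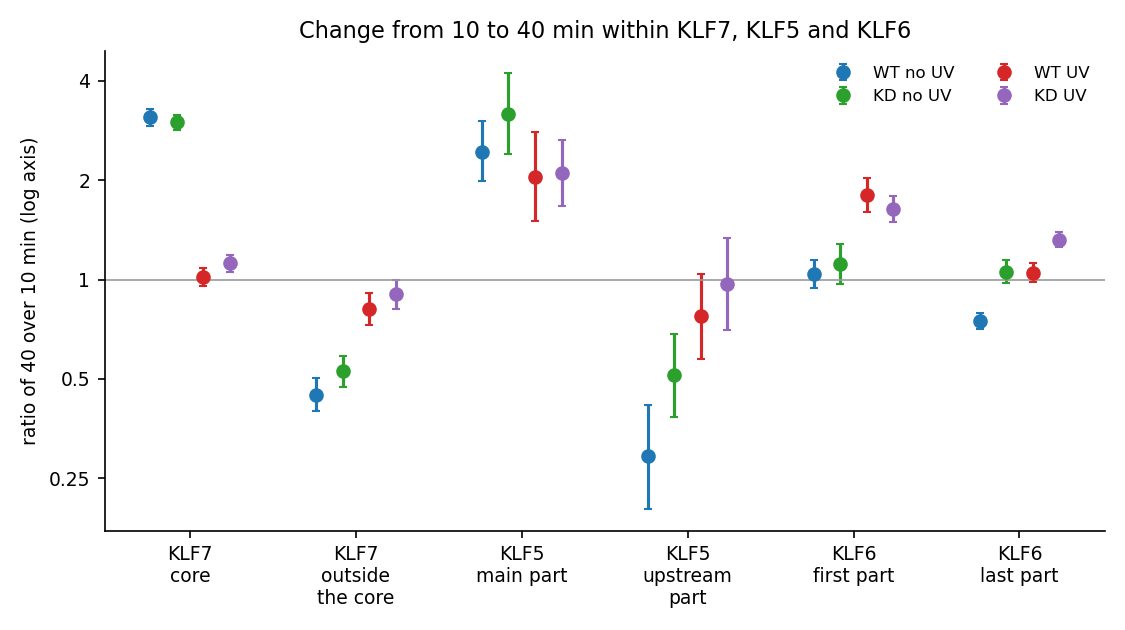
Ratio of read density at 40 over 10 min (y axis, log scale, 1 marked by the line) in parts of KLF7, KLF5 and KLF6, for the 4 pairs of libraries in colour, with exact 95% intervals that cover counting error only. The KLF7 core lies at 3.10 and 2.99 without UV and at 1.02 and 1.12 with UV, and the main part of KLF5 lies above 2 in all 4 pairs.

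The comparison of 40 with 10 min over all pairs asks how transcription recovers after DRB. None of the 10 genes was called by edgeR's quasi-likelihood test, 1 had an unadjusted p under 0.05, and neither DESeq2 nor limma-voom called any. Of all genes tested 26, or 0.146%, were called. Leaving out either unirradiated WT library, the unirradiated KD library at 10 min or the irradiated KD library at 40 min brought this count to 0. Leaving out an irradiated WT library brought it to 262 (10 min) or 1765 (40 min), and leaving out a remaining KD library to 714 (unirradiated, 40 min) or 900 (irradiated, 10 min). DESeq2 called 1633. In the main fit 3911 genes had an unadjusted p under 0.05, and the median over the 10 members was 0.30 (log2) beside -0.10 over all genes. KLF9, a SIN3A-recruiting gene known as a target of glucocorticoid and thyroid hormone (chromosome 9, 70384597 to 70414624, minus strand), was at 7.10 and 11.8 CPM in WT without UV, 6.73 and 11.7 in WT with UV, 7.70 and 16.2 in KD without UV, and 9.76 and 11.9 in KD with UV. It was higher at 40 min in all 4 pairs, by 0.72 ± 0.31 (log2, SE; adjusted p = 0.201 by edgeR), at 0.896 to 4.64 times the background. The next estimates were 0.58 ± 0.41 for KLF2, 0.56 ± 0.33 for KLF7 and 0.52 ± 0.30 for KLF5. KLF13 at -0.66 ± 0.35 and KLF10 at -0.48 ± 0.34 were the lowest of the 10, and both had ratios below 1 in all 4 pairs. Without WT no UV 10 min the KLF10 value was -0.12, without KD no UV 40 min it was -0.29, and without WT no UV 40 min the KLF13 value was -0.39.

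**Figure D4:**
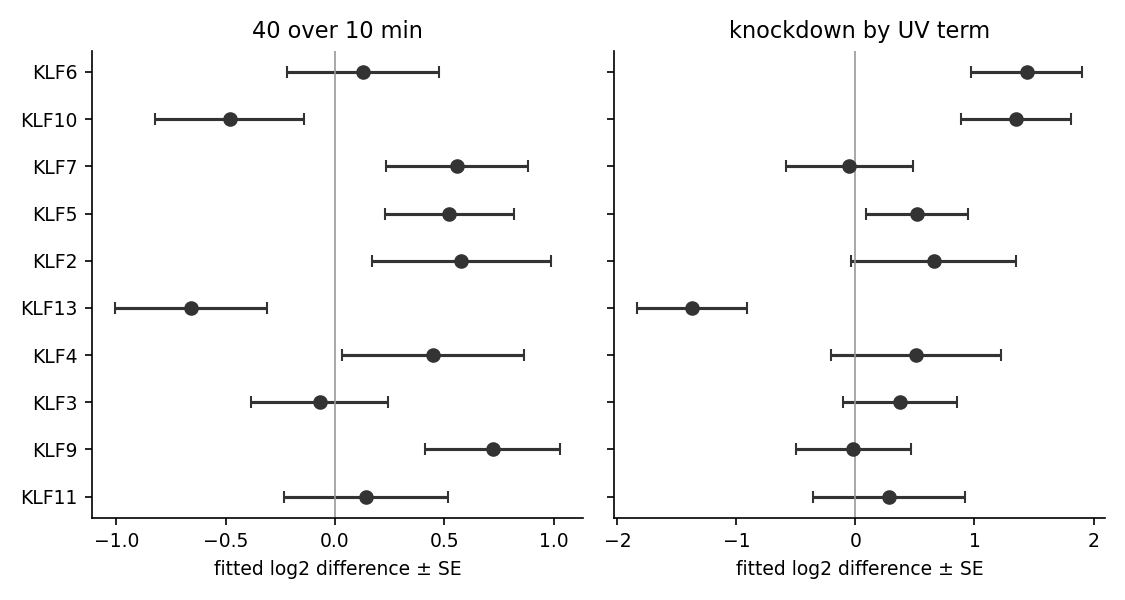
Fitted log2 differences (x axis) of the 10 KLF genes (y axis) for 40 over 10 min and for the knockdown by UV term. Bars are standard errors derived from edgeR's F statistic. KLF6 and KLF10 lie at 1.44 and 1.35 for the knockdown by UV term and KLF13 at -1.38, and none of the 10 genes was called in either.

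KLF2 and KLF4, the ERK5 and MEF2 targets best known for endothelial quiescence, and KLF4 also for reprogramming, had few reads (17 to 57 and 18 to 65 per library). KLF2 (chromosome 19, 16324817 to 16327874, plus strand) was at 2.04 and 2.27 CPM in WT without UV, 1.59 and 3.39 in WT with UV, 1.70 and 1.48 in KD without UV, and 1.87 and 4.15 in KD with UV. KLF4 (chromosome 9, 107484852 to 107489769, minus strand) was at 2.63 and 1.69 CPM in WT without UV, 1.59 and 3.01 in WT with UV, 1.95 and 2.52 in KD without UV, and 2.12 and 4.74 in KD with UV. For both genes the 2 highest libraries were those with UV at 40 min. The ratios of 40 over 10 min with UV were 2.12 in WT and 2.22 in KD for KLF2 and 1.89 and 2.23 for KLF4, and without UV 1.11 and 0.868 for KLF2 and 0.644 and 1.30 for KLF4. Their UV by time terms were 1.11 ± 0.72 and 1.20 ± 0.73 (log2, SE), and neither was called.

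KLF3, the CtBP-recruiting member (chromosome 4, 38664199 to 38701517), was at 20.7 and 12.3 CPM in WT without UV, 13.9 and 15.5 in WT with UV, 15.1 and 16.2 in KD without UV, and 16.6 and 19.8 in KD with UV. The annotation places an antisense gene, KLF3-AS1, over its start. Its fitted change over time was -0.07 ± 0.31 (log2, SE). KLF11, a TGF-beta-inducible relative of KLF10 (chromosome 2, 10043550 to 10054836, plus strand), was at 2.63 and 2.85 CPM in WT without UV, 1.86 and 2.56 in WT with UV, 3.49 and 2.35 in KD without UV, and 2.38 and 3.42 in KD with UV, on 21 to 59 reads.

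For UV over no UV none of the 10 genes was called, none had an unadjusted p under 0.05, and 0% of all genes were called, with 304 at an unadjusted p under 0.05. Estimates ran from -0.46 ± 0.33 (log2, SE) for KLF7 to 0.48 ± 0.41 for KLF2, with a median of 0.11 beside 0.12 over all genes. KD over WT gave none called as well, with 0% of all genes (84 at an unadjusted p under 0.05), none of the 10 at an unadjusted p under 0.05 and a range from -0.23 ± 0.35 for KLF10 to 0.32 ± 0.35 for KLF13, with a median of 0.15 beside 0.04. DESeq2 and limma-voom called none of the 10 in either.

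The wider KLF network was read from lists of known relatives, partners, regulators and targets. Among 6 other KLF genes tested, KLF1 (-2.35 ± 0.58, log2, SE) and KLF15 (-3.09 ± 0.60) were called negative for the knockdown by UV term, where 3.95% of all genes were. The 6 had no call for time, UV or knockdown. KLF15 lay at a median of only 1.36 times the background and KLF1 at 10.8 times. The part of the background in these values was not tested. None of 7 SP genes, 10 genes for KLF protein turnover and kinases, or 17 upstream regulators was called in any of the 5 comparisons. SP3, which competes for the same boxes, changed by 1.03 ± 0.33 from 10 to 40 min, and the upstream regulator SRF by 1.15 ± 0.32, with adjusted p of 0.105 and 0.0757 by edgeR. Of 12 corepressors and coactivators 1 was called, HDAC1, at 2.13 ± 0.44 for the knockdown by UV term, near the 5.04% of all genes called positive. Of 18 known KLF targets tested, 6 were called positive (among them CCND1, SMAD7, TAGLN, ODC1 and ENG) and 1 negative (PPARG) for that term, beside 5.04% and 3.95% of all genes, with a list median of 0.82 beside 0.11 over all genes. ENG, the gene of the TGF-beta co-receptor endoglin, was at 2.97 ± 0.53, TAGLN, a smooth muscle actin-binding gene, at 2.41 ± 0.48, and PPARG, a master regulator of fat cells, at -1.83 ± 0.50. The order of the tables coincides with this term as well. Among 16 immediate early genes tested, FOS (2.55 ± 0.43) and EGR1 (2.83 ± 0.39) rose from 10 to 40 min, calls that were lost in the 4 fits without 1 library that called no gene, and for the knockdown by UV term CCN2 was called positive (1.65 ± 0.48) and BTG2 negative (-1.65 ± 0.48).

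Genes outside the family whose log2 CPM ran most like that of KLF7 over the 8 libraries were RAB27A (86.8 kb, r = 0.99), BRAF (190.2 kb, r = 0.99) and MOSMO (79.3 kb, r = 0.99). For KLF9 they were MBIP (22.1 kb, r = 0.98), NFYB (21.1 kb, r = 0.96) and TMEM40 (25.3 kb, r = 0.95). These are the top 3 of 10919 genes over 8 libraries that differ in depth and time. A likeness picked out of so many is a description only.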

How the data were processed

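GRO-seq of 8 libraries was analysed from the deposited tables. Per the labels, the 8 samples form 8 groups of 1. The authors deposited raw read counts per transcript, with no normalization, as 1 table of 41581 transcripts per library. The submitters' processing notes name BWA 0.5.9, SAMtools and hg38. Counter and annotation release: not given in the sources used here. Of 1286 pairs in which a transcript lies inside a longer one on the other strand, the inner had more reads in 91, against 0 of 32997 same-strand pairs, so counting used strand. Depth was 10.2 to 21.1 M reads.

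The longest transcript stood for each gene. Reads of nested transcripts were subtracted to give parts. Genes passing filterByExpr (minimum count 10, minimum total 15), 17840 of 19351 and including all 10 members, were tested by edgeR 4.0.16 (R 4.3.3, quasi-likelihood F-test, TMM, Benjamini-Hochberg over all genes). UV, knockdown and time were additive terms (4 residual degrees of freedom), and each interaction was added alone (3 left). Calls had an adjusted p under 0.05. Each SE was derived as the absolute log2 difference divided by the square root of edgeR's F statistic. Log2 CPM used a prior count of 2. Intervals of single ratios are exact and binomial. Tests were checked on simulated data. The simulated counts had the same spread for every gene and no split by table order, so the check does not cover these features. The planned background, olfactory receptor genes, held 1 gene, so 20 epithelial and immune markers replaced it after the data were seen. Alternatives were DESeq2 1.42.0, limma-voom 3.58.1, other scalings, filters, transcripts and subsets of libraries. Members and lists were chosen with earlier results of these data known. All members are named with every value. Of other lists, called genes are named where 5 or fewer were called, and otherwise the 3 largest in each direction. SRF, SP3, CCND1, SMAD7 and ODC1 were named after their values were seen. KLF14, KLF18, SP7, SP9, JUN, JUNB, IER5, TGFB1, THBD and CLDN5 were not analysed here. Some genes that the rule takes are left unnamed and stay in the counts.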

Additional observations from a re-analysis of the deposited data

Results flagged for a closer look

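For 5 of the 10 genes KD over WT pointed one way in both pairs without UV and the other way in both pairs with UV. The share of all genes with this pattern was not counted, so the 5 cannot be read as a trait of the family. For the knockdown by UV term, 6907 of all 17840 genes tested had an unadjusted p under 0.05 by edgeR. The difference of the mean log2 ratios, with minus without UV, was 0.65 for KLF2, 0.51 for KLF5, 1.41 for KLF6, 1.33 for KLF10 and -1.39 for KLF13. KLF13 also showed opposite directions of UV over no UV in WT and KD, with a difference of -1.39. The knockdown by UV term tested these differences, and edgeR's quasi-likelihood test called none of the 5 genes. The smallest adjusted p by edgeR was 0.0577, for KLF6. The term coincides with the order of the tables, and the 2 cannot be told apart.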

How the results depend on the processing

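No condition was repeated, so a call rests on the spread between pairs. None of the 10 genes was called in the main analysis, and each count below stands beside the share of all genes called under the same setting. For 40 over 10 min, 2 were called with the knockdown by UV term as a covariate (KLF9 and KLF13; chosen after seeing the data; 26% of all genes), 1 in the libraries without UV alone (KLF13; 31.2%) and 2 in those with UV alone (KLF2 and KLF13; 22.7%). For KD over WT, 1 was called in the libraries without UV alone (KLF13; 20.9%). For the knockdown by UV term, 3 were called with RLE scaling (26.8%) and 3 by DESeq2 (28.1%; KLF6, KLF10 and KLF13 in both), 1 with library totals (16.4%) and 1 with TMM on genes of 1 to 10 kb (26.8%; KLF13 in both). Leaving out 1 library gave 0 to 3: 3 without WT no UV 10 min (43.0%), 2 without WT no UV 40 min (KLF6 and KLF10; 12.6%) and 2 without WT UV 10 min (KLF6 and KLF13; 30.6%). No other alternative called a member, and UV over no UV and the UV by time term gave none in any. The cause was not tested. The KLF7 change over time was -0.10 in the libraries with UV alone, where the main value was 0.56, and 1.09 in those without UV. No other of the 9 single values followed turned direction. The median knockdown by UV term of all genes was 0.11, and -0.33 with TMM on genes of 1 to 10 kb, where 657 genes were positive and 4118 negative, against 899 and 704. For UV by time it moved from 0.30 to -0.38. Genes with few reads (KLF2, KLF4 and KLF11) limit what this depth can show.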
